A study of Mus musculus with 24 samples.

Results

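The comparison asked how the response of irradiated mouse lung to neutrophil depletion differed between epithelial and mesenchymal cells. For every gene it was the depletion response in the epithelium minus the depletion response in the mesenchyme, on the log2 scale. Each depletion response was formed inside its own table, as depleted minus irradiated, because the tables of the 2 compartments have separate scales. A negative difference therefore means that the epithelial response lay below the mesenchymal one, whichever way either of them moved. Genes were matched by Ensembl identifier. A gene was kept if 4 or more of the 12 libraries reached 10 normalised counts, in each table separately. This left 15092 of 48795 identifiers. The epithelial table alone kept 1534 further genes and the mesenchymal table alone 1532, and these could not be compared. Bnipl was just inside this limit (10.1 in the library that decided it) and 9430097D07Rik just outside it (9.98). In all, 278 genes had such a value of 10 to 11 and 322 one of 9 to 10.

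Of 24 libraries, 16 were compared, 4 in each of 4 groups. The mice were Balb/c females, 8 weeks of age. Depleted mice were irradiated on the lungs with 13 Gy and injected every day with anti-Ly6G, which binds a protein on the surface of mouse neutrophils. Irradiated mice had the same dose and a control IgG antibody, so both arms of every contrast carried the radiation injury. Lungs were taken 7 days after irradiation. The epithelial fraction was sorted as EpCAM-positive and the mesenchymal fraction as EpCAM-negative cells, after leukocytes, endothelium and erythroid cells had been gated out. The cell type entries of the labels give this gate as CD45, CD31 and Ter119, whereas the protocol text names CD45 in the place of CD31. The series design states 4 mice per group, and the 8 sham libraries entered the fit only for the estimate of spread.

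Epithelial libraries held 8159062 to 9267632 recovered reads in depleted mice and 10884703 to 13373329 in irradiated mice. Mesenchymal libraries held 8960347 to 9932700 in depleted mice and 7366672 to 8989716 in irradiated mice, so depth moved opposite ways in the compartments. When all libraries were thinned to the depth of the smallest, 54 differences were called, 51 of them among those called at full depth. A count of 0 allows up to 3 reads, which corresponds to 2.36 to 3.81 normalised counts in epithelial libraries and 2.48 to 3.66 in mesenchymal ones (counting error only). Alveolar type 2 markers summed to 1009870 to 1061580 normalised counts in depleted and 1025870 to 1145610 in irradiated epithelium, and to 10117 to 14245 in depleted and 11308 to 17869 in irradiated mesenchyme. Alveolar fibroblast markers summed to 199602 to 241067 in depleted and 235870 to 292304 in irradiated mesenchyme. In epithelium the fibroblast markers summed to 33971 to 38727 in depleted and 33665 to 42054 in irradiated mice. Within each fraction the markers of its label gave the larger of these sums, and markers of the other were present. Among the mesenchymal depleted libraries, replicate 4 stood apart for the genes reported here. It held the highest of the 4 values for 39 of the 75 genes with a called negative difference (52% of them, against 30.7% of all genes), and replicate 3 the lowest value for 35 (46.7%, against 28.5%). For the 15 genes with a called positive difference, replicate 4 held the lowest value for 13 (86.7%, against 28.4%). Without replicate 4 the number of called differences was 43, all of them among those called with it, and without replicate 3 it was 152 (83 shared).

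Neutrophils enter irradiated tissue in response to chemokines such as Cxcl5, which bind the receptor Cxcr2. Structural cells answer cytokines of the IL-1, IL-6, IL-17 and TNF families with acute-phase proteins, which bind bacterial products, iron or damaged material, and with prostaglandins. In the lung, Il33 is an alarmin, a nuclear cytokine released by damaged cells that acts through the receptor ST2. In mice it is made at high levels by alveolar type 2 cells and also by fibroblasts of the adventitia.

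Most genes with a called difference rose in mesenchyme and were not called in epithelium. In limma, 90 differences were called at a Benjamini-Hochberg adjusted p under 0.05, which is 0.596% of the genes tested, and 1701 genes had an unadjusted p under 0.05. The difference was negative for 75 genes (0.497%) and positive for 15 (0.0994%). Of the 75 negative ones, 70 rose in mesenchyme, where 4.14% of all genes did, and were not called in epithelium. Another 4 (Cd59a, Rpl11, Rpl36a-ps2 and Rps23-ps1) fell in epithelium (0.437% of all genes), and Csgalnact1 was called in neither compartment alone. Of the 15 positive ones, 11 fell in mesenchyme (1.73% of all genes), Ptger3 rose in epithelium (0.431% of all genes), and Atp2b4, Gm15870 and Gpr157 were called in neither. The response of each compartment is part of the difference, so the selection itself raises these numbers above the shares of all genes. They describe the called genes and are not support. No gene was called in both compartments with opposite signs. Within the compartments depletion changed 131 genes in epithelium (0.868%) and 886 in mesenchyme (5.87%), of which 33 were shared, all with the same sign. These are 25.2% of the epithelial and 3.72% of the mesenchymal calls.

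The 75 genes with a negative difference had a median response of -0.05 in epithelium and 0.60 in mesenchyme, and the 15 with a positive difference had 0.35 in epithelium and -0.67 in mesenchyme. These medians describe the genes that the test selected. Among the 75, Cxcl5, Npy2r and the pseudogene Gm43110 passed the minimum in the mesenchymal table only through its depleted libraries, and among the 15, Gm15870 did so only through the irradiated ones. Such genes had to differ there, so their calls are given as counts and not as support. At least a 2-fold difference was seen for 20 of the negative and 9 of the positive ones. The 4 depleted and 4 irradiated values did not overlap in mesenchyme, with depletion above, for 69 of the 75, against 6.42% of all genes, a share that the selection itself raises. In epithelium they overlapped for 64 of the 75, while over all genes 6.44% did not overlap there, 3.27% with depletion above and 3.17% with depletion below. With DESeq2 on the recovered reads 52 of 177 differences were positive, 29.4% against 16.7% in limma.

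**Figure D1:**
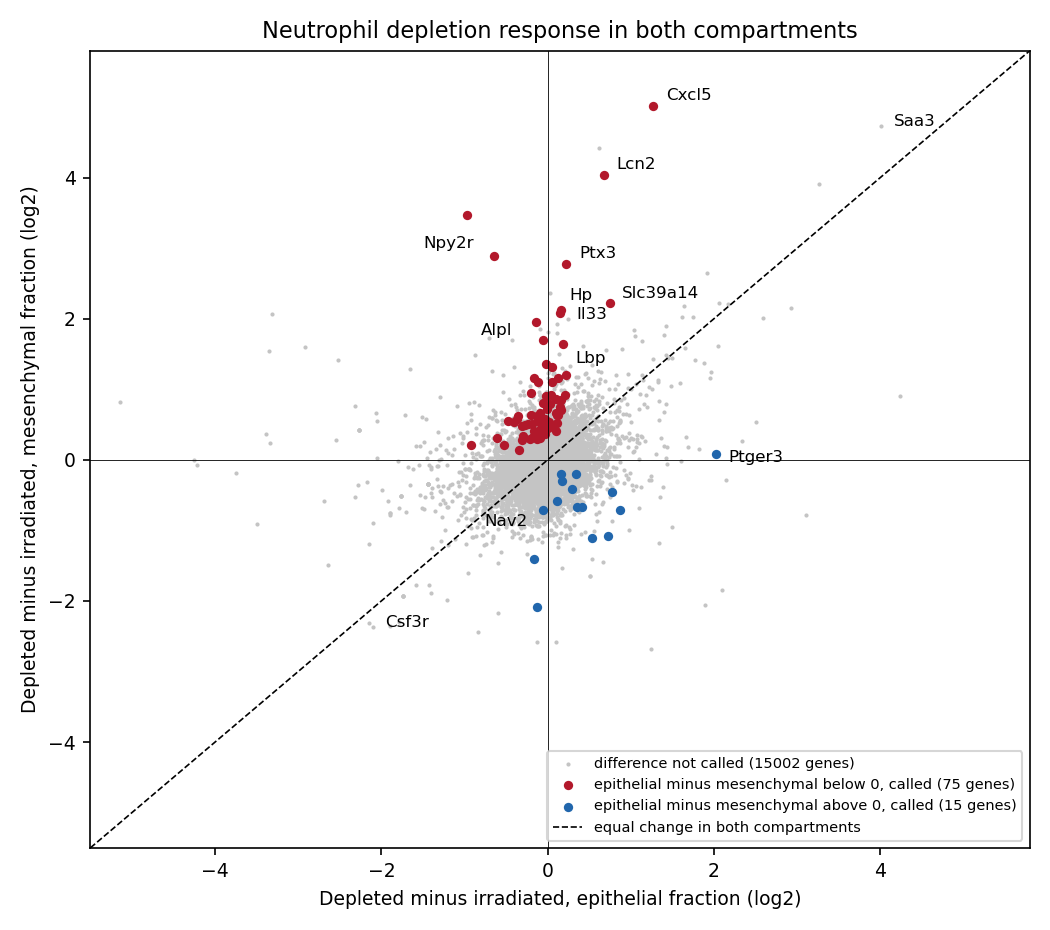
Each point is 1 of the 15092 genes, with the epithelial depletion response on the horizontal and the mesenchymal depletion response on the vertical axis (both log2, depleted minus irradiated). The 75 genes with a called negative difference (red) lie mostly along the vertical axis, above the dashed line of equal response, the 15 with a called positive difference (blue) lie below it, and Saa3 and Csf3r are among the uncalled genes (grey) near the line.

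Sequences before annotated starts are shown for Ptgs2, Lcn2, Ptx3 and Il33, 4 inflammatory genes of the set that match the motif marked below. They are the 250 bases before a RefSeq start in GRCm38.p6, written 5′ to 3′ on the strand of the gene, at chr1:150099781-150100030 (plus strand), chr2:32387740-32387989 (minus), chr3:66219637-66219886 (plus) and chr19:29945540-29945789 (plus, 1 of 2 windows of Il33). The windows of Lcn2 and Il33 lie inside the gene spans printed below, before starts internal to them, and for Ptx3 the RefSeq start lies before the GENCODE span, so that the bases just after it were not matched to a GENCODE transcript. Capitals mark a match to a C/EBP-type motif, searched as TTNNGCAA on both strands. Only windows with such a match are shown, so they do not stand for all inflammatory genes of the set.
Ptgs2: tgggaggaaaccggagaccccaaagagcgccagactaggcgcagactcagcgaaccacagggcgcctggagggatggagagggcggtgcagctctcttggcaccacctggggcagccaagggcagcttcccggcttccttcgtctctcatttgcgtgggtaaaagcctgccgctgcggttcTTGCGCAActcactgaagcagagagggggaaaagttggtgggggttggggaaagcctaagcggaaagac
Lcn2: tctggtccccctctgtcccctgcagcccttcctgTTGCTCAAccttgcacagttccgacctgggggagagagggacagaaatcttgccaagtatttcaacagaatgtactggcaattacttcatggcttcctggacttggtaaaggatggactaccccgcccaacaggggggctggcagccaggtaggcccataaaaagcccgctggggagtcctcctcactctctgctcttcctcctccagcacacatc
Ptx3: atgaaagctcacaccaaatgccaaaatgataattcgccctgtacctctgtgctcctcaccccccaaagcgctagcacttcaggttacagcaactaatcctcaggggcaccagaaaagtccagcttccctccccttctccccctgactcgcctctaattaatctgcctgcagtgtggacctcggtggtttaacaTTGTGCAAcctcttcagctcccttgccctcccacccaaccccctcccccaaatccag
Il33: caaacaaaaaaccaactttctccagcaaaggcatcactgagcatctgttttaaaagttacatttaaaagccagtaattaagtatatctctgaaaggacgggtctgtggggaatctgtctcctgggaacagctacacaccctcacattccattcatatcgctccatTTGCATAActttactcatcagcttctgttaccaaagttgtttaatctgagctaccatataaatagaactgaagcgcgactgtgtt
The first matched base lay at -69 in Ptgs2, -216 in Lcn2, -57 in Ptx3 and -85 in Il33, counted from the start.

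The motif was searched after the values were known, as 1 of 4 types, and a match is a description of the letters, not a site. A window existed for 46 of the 75 genes with a negative difference, and 14 of them held the C/EBP-type letters (30.4%). The same letters were in 931 of 10368 tested genes with a window (8.98%), in 9.56% of all 32851 windows and in 0 of the 10 matched genes with a positive difference. Besides the 4 genes shown, the 14 were Il1r1, Tgfbr2, Fth1, Mgst1, Aldh1l1, Abcc4, Dram1, Fkbp2, Ssbp4 and Rpl11. Hp, Lbp, Cxcl5, Slc39a14 and Sod2 were not among them, for want of a match or of a window. NF-kB-type letters stood before 6 of the 46 genes (13.0%), against 26.4% of tested genes, and before 5 of the 10 with a positive difference. STAT-type letters, TTCNNNGAA, stood before 3 of the 46 (6.52%, against 7.23%) and AP-1-type letters, TGANTCA, before 1 (2.17%, against 5.52%). The 4 motifs can overlap each other.

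Il33 gave the smallest p of all 15092 differences (ENSMUSG00000024810, GRCm38 chromosome 19, start 29925114, end 29960718). In epithelium its normalised counts were 2438, 2686, 2887 and 2581 in depleted mice and 2577, 2347, 2487 and 2177 in irradiated mice. In mesenchyme they were 1341, 1087, 700.6 and 1028 in depleted mice and 300.2, 254.9, 219.7 and 190.3 in irradiated mice. The epithelial groups overlapped, while every depleted mesenchymal library lay above every irradiated one. The log2 response was 0.14 in epithelium and 2.09 in mesenchyme, a 4.24-fold rise, and the difference was -1.94 (SE 0.201, limma adjusted p = 4.17e-05). Il33 is itself on the adventitial fibroblast list, and the other 14 genes of that list summed to 35033 to 46802 in depleted and 33465 to 56862 in irradiated mesenchyme. In bulk samples a change in the share of a cell type and a change in RNA per cell cannot be told apart.

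Among the acute-phase and complement genes 18 of 22 were tested. Of these, 5 had a called negative difference (0.497% of all genes did), Lcn2, Hp, Ptx3, Lbp and Cd59a. None had a positive one. The median difference of the list was 0.16, opposite in sign to its 5 calls, against -0.01 over all genes, and 6 of the 18 were below 0. The count was 3 with the 16 compared libraries alone and 3 with thinned reads. The gene lists were chosen with earlier results of these data known. Here and for the lists that follow, counts beside the share of all genes describe the list and are not support.

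Lcn2, or lipocalin-2, binds bacterial iron carriers (chromosome 2, start 32384633, end 32388252). In epithelium it was at 5108, 3939, 4207 and 5646 in depleted mice and 2864, 3842, 2352 and 2806 in irradiated mice. In mesenchyme it was at 1320, 643.3, 1177 and 2616 in depleted mice and 42.29, 174.1, 42.72 and 108.5 in irradiated mice. Depleted libraries lay above irradiated ones in both compartments, with an epithelial log2 response of 0.68 that was not called (adjusted p = 0.598) and a 16.4-fold mesenchymal rise. The difference was -3.36 (SE 0.573, limma adjusted p = 0.00763), and it was not called with the 16 libraries alone (adjusted p = 0.0609). Mesenchymal depleted replicate 4 was the highest of its group.

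Lcn2 is also a neutrophil gene and Hp, the haemoglobin-binding protein haptoglobin, is on the club and secretory cell list. The summed markers of those cells are therefore given beside them. The neutrophil list without Lcn2 (14 genes, 9 tested) summed to 360 to 850 in depleted and 445 to 941 in irradiated mesenchyme. Its values in epithelium were 1060 to 2525 in depleted and 367 to 1318 in irradiated mice. Such a sum is not a measure of neutrophil number, since the members moved both ways. With Lcn2, 5 of the 10 tested responses were below 0 in each compartment. In epithelium 1 was called lower (0.437% of all genes) and 0 higher. In mesenchyme 2 were called lower (1.73%) and 1, Lcn2, higher (4.14%). Ly6g, the antibody target, was too low to test, with at most 5.08 in any compared library. The 14 pan-epithelial markers summed to 611 to 836 in depleted and 526 to 676 in irradiated mesenchyme. Club and secretory markers without Hp summed to 8791 to 13605 in depleted and 6502 to 8956 in irradiated mesenchyme, ranges with a narrow overlap. None of the marker genes of these lists was at 0 in all 4 libraries of a compared group. The part of such cells in the responses of Lcn2 and Hp was not tested.

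Hp was at 3999, 3616, 3260 and 3586 in depleted and 3320, 3545, 3134 and 2945 in irradiated epithelium. Its mesenchymal values were 972.6, 730.6, 1004 and 2399 in depleted mice, against 171.2, 443.9, 165.8 and 375.7 in irradiated mice. The difference of -1.96 (SE 0.44, limma adjusted p = 0.0477) was close to the threshold and was lost in 19 of 29 alternatives (adjusted p up to 0.177).

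Ptx3 codes for pentraxin 3, a pattern-recognition protein that binds microbes and complement C1q (chromosome 3, start 66219910, end 66225805). Its values were 101.0, 109.3, 74.48 and 93.33 in depleted and 71.44, 78.00, 80.92 and 90.03 in irradiated epithelium. In mesenchyme they were 1321, 1164, 481.3 and 1243 in depleted mice, against 196.0, 201.4, 84.42 and 123.2 in irradiated mice. The mesenchymal groups did not overlap although depleted replicate 3 lay well below the other 3. The response was 1.17-fold in epithelium and 6.84-fold in mesenchyme, with a difference of -2.55 (SE 0.385, limma adjusted p = 0.00183).

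Lbp, the lipopolysaccharide-binding protein, was at 2698, 3201, 2570 and 2537 in depleted and 3020, 2547, 2169 and 1994 in irradiated epithelium. The mesenchymal libraries held 1788, 1442, 1642 and 1939 in depleted mice, against 436.3, 786.4, 438.4 and 575.7 in irradiated mice. Its difference of -1.45 (SE 0.211, limma adjusted p = 0.00175) was held in all 29 alternatives. Cd59a, which blocks the membrane attack complex, differed in another way. It fell in epithelium, where 60.2 ± 11.2 in depleted stood against 91.6 ± 6.85 in irradiated mice (SD, n = 4 each), a response of -0.61. In mesenchyme 220.6 ± 29.0 in depleted stood against 177.8 ± 19.2 in irradiated mice, a response of 0.31 that was not called (difference -0.92, SE 0.188, limma adjusted p = 0.0192).

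Other members of the list responded in both compartments. Saa3, an acute-phase serum amyloid, rose by 4.02 in epithelium and 4.73 in mesenchyme, with a difference of -0.72 (SE 0.665) that was not called (limma adjusted p = 0.752). Its normalised count was 509 ± 168 in depleted and 34.1 ± 25.1 in irradiated epithelium, and 5783 ± 2493 in depleted and 244 ± 174 in irradiated mesenchyme (SD, n = 4 each). The complement genes C3 and Cfb, of the alternative pathway, also rose in both, C3 by 0.95 in epithelium and 0.64 in mesenchyme and Cfb by 1.97 in epithelium and 1.24 in mesenchyme. Their differences were 0.30 (SE 0.249) and 0.73 (SE 0.436), neither of them called. These genes were named after their values were seen. A difference that misses the threshold does not show that the responses were equal.

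**Figure D2:**
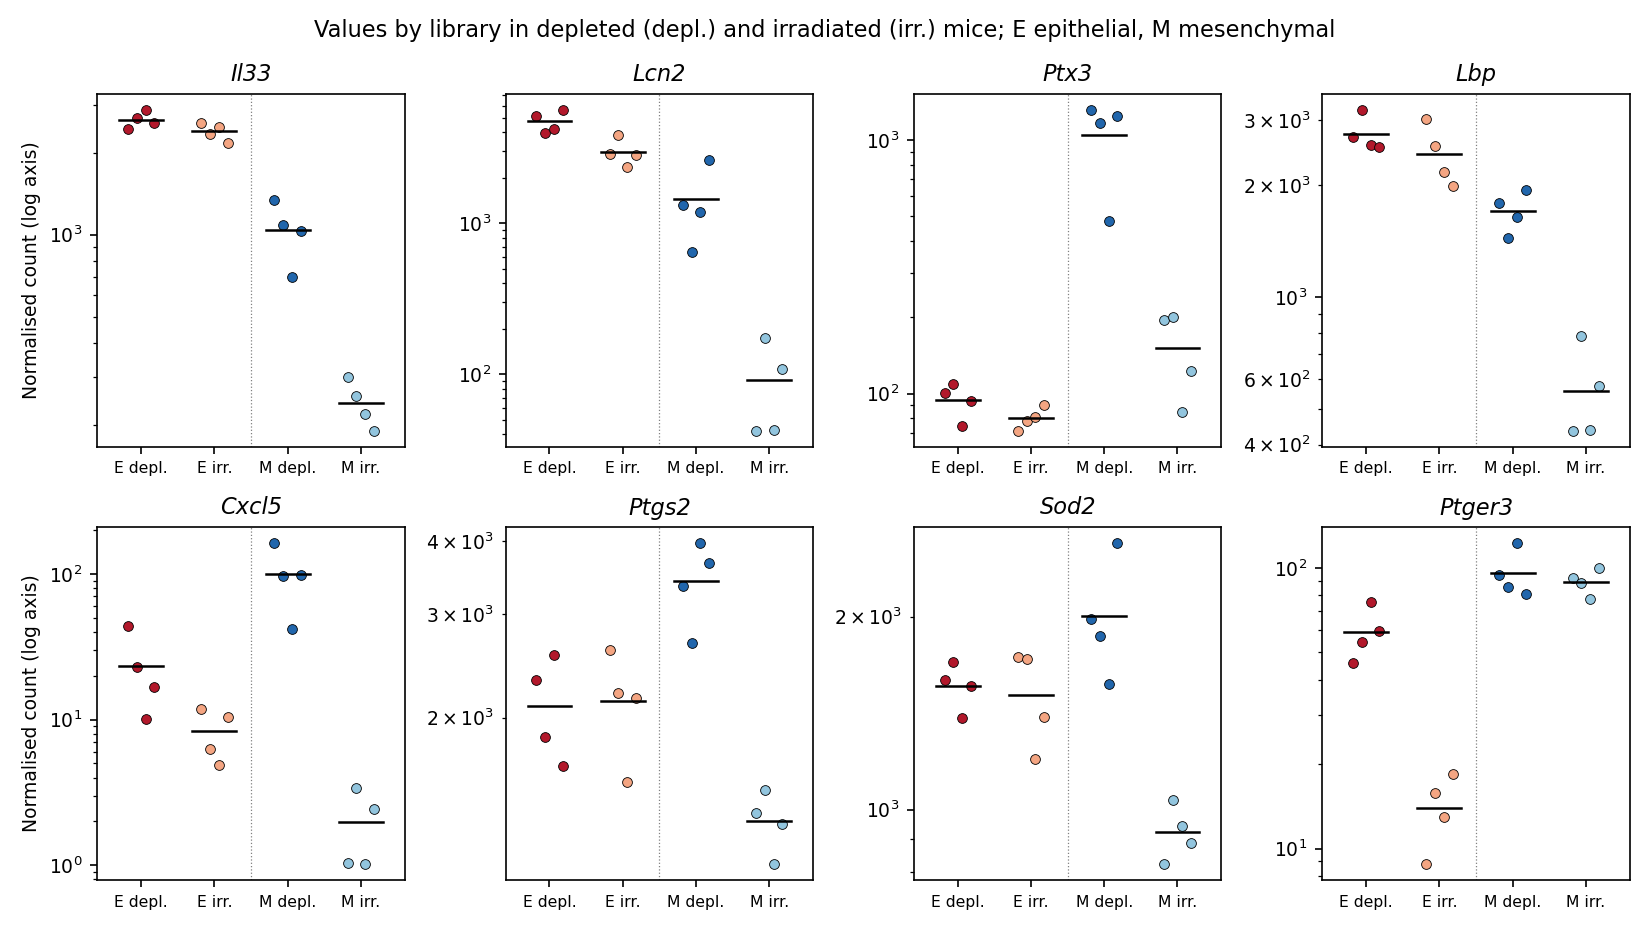
Points are the normalised counts of single libraries on logarithmic axes and black lines are group means (n = 4) for 7 genes with a called negative difference and for Ptger3. The epithelial and mesenchymal tables have separate scales, so only depleted against irradiated within a compartment can be read. Depletion is above without overlap in mesenchyme for the 7 genes and in epithelium for Ptger3. All were picked by the test of the difference, which itself favours such separation. Cxcl5 passed the minimum in mesenchyme only through its depleted libraries, so its separation there is not support.

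Of 18 tested chemokines and colony-stimulating factors (27 listed), 1 had a called difference (0.596% of all genes did). It was Cxcl5, a neutrophil attractant (chromosome 5, start 90759360, end 90761624). Its epithelial values were low, 43.76, 22.88, 10.16 and 16.75 in depleted and 11.74, 6.303, 4.855 and 10.45 in irradiated mice. In mesenchyme they were 162.9, 97.17, 41.56 and 98.77 in depleted mice and 1.032, 3.414, 1.017 and 2.439 in irradiated mice. The irradiated mesenchymal libraries held 1, 3, 1 and 2 reads, at or under the limit that a count of 0 allows. The depleted ones held 159, 108, 43 and 98 reads, and the ratio of the summed reads, scaled for library size, was 51.7. The difference on the log2(value + 1) scale was -3.75, a scale that understates the change of so low a gene. No p or interval is given, because only the depleted libraries took it past the minimum in mesenchyme, where the sham libraries held at most 1.014. Cxcl1, which binds the same receptor, gave -0.76 (limma adjusted p = 0.293), and the monocyte attractant Ccl7 rose in both compartments, by 1.27 in epithelium and 1.43 in mesenchyme. The median difference of the list was -0.09, and 11 of the 18 were below 0.

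Of 26 tested inflammatory cytokines and NF-kB targets (31 listed), 3 had a called negative difference (0.497% of all genes did), Il33, Ptgs2 and Il1r1. None had a positive one (median -0.12, 17 below 0). Ptgs2 codes for the inducible cyclooxygenase of prostaglandin synthesis (chromosome 1, start 150100031, end 150108227). It was at 2321, 1855, 2555 and 1655 in depleted and 2612, 2200, 1555 and 2158 in irradiated epithelium, with mixed order. In mesenchyme it was at 3347, 2686, 3969 and 3667 in depleted mice, against 1373, 1506, 1125 and 1317 in irradiated mice, 2.56-fold higher with no overlap. The difference was -1.37 (SE 0.231, limma adjusted p = 0.00486).

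Il1r1, the signalling receptor of IL-1, was at 726.0, 739.8, 655.7 and 576.7 in depleted and 673.3, 665.0, 565.6 and 716.2 in irradiated epithelium. Mesenchymal libraries held 2474, 2679, 2264 and 3184 in depleted mice, against 1262, 1491, 1463 and 1333 in irradiated mice. The epithelial groups overlapped and the mesenchymal ones did not (difference -0.88, SE 0.139, limma adjusted p = 0.00183). Lif, a cytokine of the IL-6 family, gave -1.07 (adjusted p = 0.12) and Il6 gave -0.73 (adjusted p = 0.27), although both rose in mesenchyme, by 1.34 and 0.83. The transcription factor gene Cebpb had differences near 0 at -0.10 (SE 0.128) and Cebpd at -0.17 (SE 0.169). Cebpb rose in mesenchyme by 0.46 and Cebpd by 0.62, and the epithelial responses of 0.36 (adjusted p = 0.0583) and 0.46 (adjusted p = 0.0723) were not called in limma. Lif, Il6, Cebpb and Cebpd were named after their values were seen.

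Il17ra, Il6st, Tnfrsf1a and Acvr1b, receptors on none of the gene lists, were named after their values were seen. Il17ra, a subunit of the IL-17 receptor, averaged 373 ± 38.2 in depleted and 343 ± 32.3 in irradiated epithelium, and 1091 ± 228 in depleted and 486 ± 79.2 in irradiated mesenchyme (SD, n = 4 each; difference -1.04, SE 0.228, limma adjusted p = 0.038). Il6st, the signal transducer gp130 shared by IL-6 family receptors, did not overlap between treatments in either compartment and averaged 4324 ± 185 in depleted and 3854 ± 94.9 in irradiated epithelium, and 11434 ± 1973 in depleted and 6965 ± 429 in irradiated mesenchyme. Its difference was -0.54 (SE 0.109, limma adjusted p = 0.0192). Tnfrsf1a, a receptor of TNF, gave -0.41 (SE 0.0931, adjusted p = 0.038), and Acvr1b, an activin receptor, gave -0.71 (SE 0.147, adjusted p = 0.0236). Each of these 4 rose in mesenchyme, by 1.16, 0.70, 0.53 and 0.92 on the log2 scale, and none was called in epithelium. The Il17ra call was lost in 15 of 29 alternatives, Tnfrsf1a in 17, Acvr1b in 4 and Il6st in 3.

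On the gene lists, Tgfbr2, the type 2 TGF-beta receptor, was the 1 called gene of 22 in the TGF-beta pathway (median 0.01, 0.596% of all genes called). It was at 1950, 1842, 1852 and 1973 in depleted and 1704, 1818, 1773 and 1798 in irradiated epithelium, without overlap but 1.07-fold apart. In mesenchyme it was at 9127, 8901, 8341 and 10681 in depleted mice, against 5194, 5937, 6106 and 6102 in irradiated mice, 1.58-fold apart (difference -0.56, SE 0.107, limma adjusted p = 0.011). Of 32 growth factor genes tested, 2 had a called negative difference (median -0.09), against 0.497% of all genes. They were Spry2, a feedback inhibitor of receptor tyrosine kinases (difference -0.71, SE 0.109, limma adjusted p = 0.00175), and Egfr, the EGF receptor (-0.69, SE 0.144, adjusted p = 0.0258, lost in 7 of 29 alternatives).

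Slc39a14 codes for a zinc and iron importer (chromosome 14, start 70303469, end 70351425). Its values were 213.2, 219.9, 153.5 and 289.6 in depleted and 125.3, 153.6, 102.0 and 132.6 in irradiated epithelium. In mesenchyme they were 2752, 2442, 1884 and 4311 in depleted mice, against 516.8, 737.5, 510.6 and 575.7 in irradiated mice. The epithelial response of 1.68-fold was not called (adjusted p = 0.0826), and the difference was -1.48 (SE 0.281, limma adjusted p = 0.0152). That call was lost with the 16 libraries alone (adjusted p = 0.0827).

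Sod2, the mitochondrial superoxide dismutase, was the called gene among 20 metallothionein and oxidative stress genes (0.596% of all genes were called). It was at 1592, 1697, 1388 and 1560 in depleted and 1732, 1718, 1198 and 1396 in irradiated epithelium. The values in mesenchyme were 1985, 1868, 1569 and 2604 in depleted mice, against 822.1, 1035, 941.9 and 887.9 in irradiated mice, with no overlap (difference -1.04, SE 0.181, limma adjusted p = 0.00515). Of the list 18 of 20 differences were below 0, with a median of -0.26. Mt2, a metallothionein, rose by 1.75 in epithelium and 2.02 in mesenchyme, with a difference of -0.27 (SE 0.341) that was not called.

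Fth1, Slc11a2, Prdx5 and Mgst1 were chosen after their values were seen. Fth1, the ferritin heavy chain that stores iron, averaged 7002 ± 667 in depleted and 7069 ± 290 in irradiated epithelium, and 11129 ± 1301 in depleted and 7644 ± 234 in irradiated mesenchyme (SD, n = 4 each; difference -0.55, SE 0.11, limma adjusted p = 0.0167). Slc11a2, the iron transporter DMT1, gave -0.60 (SE 0.102, adjusted p = 0.00297). Prdx5, a peroxiredoxin, was among the least variable, with 616.9, 599.2, 616.6 and 622.9 in depleted and 430.1, 422.2, 433.3 and 401.3 in irradiated mesenchyme. It averaged 495 ± 15.4 in depleted and 491 ± 19.6 in irradiated epithelium (difference -0.53, SE 0.0861, limma adjusted p = 0.00228). Mgst1, a microsomal glutathione transferase, gave -0.52 (SE 0.104, adjusted p = 0.0184).

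The remaining large negative differences came from genes of varied roles. Npy2r, a receptor of neuropeptide Y, had 22, 12, 13 and 22 reads in depleted and 2, 1, 1 and 1 in irradiated mesenchyme. Scaled for library size, the ratio of the sums was 12.25. In epithelium it averaged 36.4 ± 16.7 in depleted and 54.1 ± 9.44 in irradiated mice, and the difference was -3.53. It too passed the minimum in mesenchyme only through the depleted libraries, so no p or interval is given. Alpl, the tissue-nonspecific alkaline phosphatase, averaged 91.2 ± 19.1 in depleted and 93.9 ± 13.3 in irradiated epithelium, and 451.5 ± 97.05 in depleted and 137.7 ± 28.2 in irradiated mesenchyme (SD, n = 4 each; difference -1.76, limma adjusted p = 0.00366). Slc16a1, the lactate transporter MCT1, gave -1.27 (adjusted p = 0.0026), Ggt5, a gamma-glutamyltransferase, -1.33 (adjusted p = 0.00183), and Enc1, an actin-binding protein, -1.14 (adjusted p = 0.00127). Acat3 gave -2.09 (adjusted p = 0.0375) and Aldh1l1, a folate enzyme, -1.23 (adjusted p = 0.0447), calls that were lost in 14 and 15 of 29 alternatives. Nek6, a mitotic kinase chosen after its values were seen, gave -0.86 (SE 0.116, adjusted p = 0.000584). Each of these genes was higher in depleted mesenchyme, where Npy2r is given as counts and not as support, and none was called in epithelium.

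Ptger3, the EP3 receptor of prostaglandin E2, had the largest positive difference of a protein-coding gene after predicted and antisense transcripts were left aside (chromosome 3, start 157566892, end 157645888). In epithelium it was at 46.01, 54.66, 75.61 and 59.83 in depleted mice, against 8.81, 15.76, 12.95 and 18.49 in irradiated mice. In mesenchyme it was at 94.28, 85.48, 122.7 and 80.63 in depleted mice, against 91.81, 88.77, 77.30 and 100.0 in irradiated mice. The epithelial groups lay far apart, 4.06-fold, and the mesenchymal ones overlapped. The difference was 1.94 (SE 0.323, limma adjusted p = 0.00263), and it was called in all 28 alternatives in which the gene was tested. It was the 1 gene of the 15 whose epithelial rise was itself called.

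Most of the other positive differences came from genes that fell in mesenchyme. Mesenchymal depleted replicate 4 held the lowest value of its group for 13 of all 15, Dock5 and Nav2 among them. Dock5, an activator of Rac, was at 230.6, 255.5, 281.2 and 217.7 in depleted mesenchyme, against 343.5, 369.9, 386.5 and 374.4 in irradiated mesenchyme. In epithelium it averaged 1215 ± 81.5 in depleted and 1122 ± 58.4 in irradiated mice (SD, n = 4 each; difference 0.70, SE 0.112, limma adjusted p = 0.00189). Nav2, a neuron navigator protein gene, was at 1751, 2442, 2168 and 1656 in depleted mesenchyme, against 3160, 3098, 3118 and 3541 in irradiated mesenchyme. In epithelium it averaged 6284 ± 363 in depleted and 6532 ± 251 in irradiated mice (difference 0.65, SE 0.119, limma adjusted p = 0.00763). Ptger3, Dock5 and Nav2 were the named positive genes whose calls held in every alternative that tested them. Gpr157 (1.23), Chn2 (1.08), Catsperg1 (0.72), Atp2b4 (0.55) and Plxna2 (0.48), a semaphorin receptor, lay between adjusted p = 0.0376 and 0.0475 in limma and were each lost in 14 to 21 alternatives.

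Several lists had mostly negative differences and few or no calls, and no test of a list was made. Their members were chosen with earlier results of these data known, so the shares describe them and are not support. Of 23 tested genes of the unfolded protein response 21 differences were below 0 (median -0.24), 14 of them at an unadjusted p under 0.05, and 2 were called, the disulfide isomerases Pdia6 (-0.44, limma adjusted p = 0.0379) and Pdia4 (-0.39, adjusted p = 0.0477). In mesenchyme 17 of the 23 rose and 1 fell, against 4.14% and 1.73% of all genes, and in epithelium 1 rose, against 0.431%. Manf, a secreted ER stress factor, rose by 0.70 in mesenchyme with an uncalled difference of -0.48 (adjusted p = 0.175). The list count was between 0 and 4 over the alternatives and between 0 and 4 when single libraries were left out. Over all genes 51.7% of differences were below 0 with a median of -0.01, and 0.497% were called negative. An unadjusted p under 0.05 was found for 1701 of all 15092 genes.

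Of 40 cytosolic ribosomal protein genes 36 differences were below 0 (median -0.24), 22 at an unadjusted p under 0.05, against 1701 of all 15092 genes. Called negative differences were 3, against 0.497% of all genes. The called ones were Rpl11 (-0.74), Rpl32 (-0.43) and Rplp1 (-0.40), between adjusted p = 0.0384 and 0.0475 in limma. Rpl11 fell in epithelium, with 926 ± 174 in depleted and 1327 ± 201 in irradiated mice (SD, n = 4 each), while Rpl32 and Rplp1 rose in mesenchyme. Ribosomal protein genes share sequence with many processed pseudogenes, and 3 pseudogenes named for ribosomal proteins (Rpl36a-ps2, Rps23-ps1 and Rps2-ps10) also had called negative differences, so these counts are uncertain. Leaving out single libraries gave 0 to 2 ribosomal calls, and the other alternatives gave 0 to 4.

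Nuclear genes of oxidative phosphorylation had 31 of 34 differences below 0 (median -0.19), and none was called, against 0.596% of all genes. Leaving out single libraries gave 0 to 1 calls for this list, and the other alternatives gave 0 to 3. In mesenchyme 5 of the 34 rose, against 4.14% of all genes. Cholesterol synthesis genes had 20 of 25 below 0 (median -0.24). Of the 25, 7 rose in mesenchyme, against 4.14% of all genes, and 0 in epithelium. The smallest adjusted p of a difference was 0.054 in limma, for Ebp, which was called in 6 of 29 alternatives. The cholesterol list held 0 to 2 calls over the alternatives. Mitochondrially encoded genes had 13 of 14 below 0 (median -0.29), also without a call. Their median response was -0.24 in epithelium and 0.03 in mesenchyme. It was -0.03 and 0.16 for oxidative phosphorylation, and 0.04 and 0.29 for cholesterol synthesis. Epithelial irradiated replicate 1 held 2.43% mitochondrial reads, against 1.63% to 1.93% in the other libraries of its group.

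The core clock and mesothelial lists had mostly positive differences and no calls. Over all 15092 genes 0.596% were called and 1701 had an unadjusted p under 0.05. Of 18 core clock genes 14 differences were above 0 (median 0.33), with 0 called and 4 at an unadjusted p under 0.05. The smallest adjusted p was 0.264 in limma, for Nfil3, whose own difference was negative (-0.43). Over the alternatives the clock list held 0 to 1 calls. All 11 mesothelial markers were above 0 (median 1.45), with 0 called by limma here or in any of the 29 alternatives and 6 at an unadjusted p under 0.05. Their sum was 1717 to 3420 in depleted and 1273 to 2560 in irradiated epithelium. In mesenchyme it was 866 to 1134 in depleted and 1019 to 1845 in irradiated mice, and the ranges overlapped in both compartments. Depleted epithelial replicates 3 and 4 held 3347 and 3420, while replicates 1 and 2 held 1980 and 1717, inside the irradiated range. Markers of 1 cell type can move together, so the 11 are not 11 separate observations. Upk3b, a uroplakin, gave 1.57 (SE 0.583, limma adjusted p = 0.29).

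Notch signalling genes showed no called difference, against 0.596% of all genes. Of 33 tested, 15 were below 0 and the median was 0.00, with 0 called in any alternative. An unadjusted p under 0.05 was found for 5, against 1701 of all 15092 genes. The receptors Notch1 (0.14, SE 0.102) and Notch2 (0.16, SE 0.0791), the ligands Dll1 (-0.10, SE 0.396) and Jag1 (0.15, SE 0.138), and the targets Hes1 (-0.42, SE 0.16, limma adjusted p = 0.293), Hey1 (-0.17, SE 0.438) and Heyl (-0.01, SE 0.179) were each uncalled. None of these 7 was called within a compartment either.

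Lists of p53 targets (31 tested), immediate early genes (25), cytosolic heat shock chaperones (21), type I interferon response (28), antigen presentation (20), Wnt (33), YAP and TAZ (19), matrix (35), proteases (20), cell cycle (27), fatty acid synthesis (20) and replication-dependent histones (17) had 0 called differences. They held 2 to 5 genes each at an unadjusted p under 0.05 except antigen presentation and histones with 1. Over all 15092 genes 1701 had such a p. As 0.596% of all genes were called, 0 calls in lists of this size lie near that share. The nearest to the threshold was Crim1, on the YAP and TAZ list, at 0.74 (SE 0.175, limma adjusted p = 0.0514). It was called in 8 of 29 alternatives. The heat shock, Wnt and fatty acid lists held 0 to 1 calls over the alternatives, and the protease list 0 to 2. The marker lists held 3 calls, of genes already described (Il33, Hp and Lcn2).

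**Figure D3:**
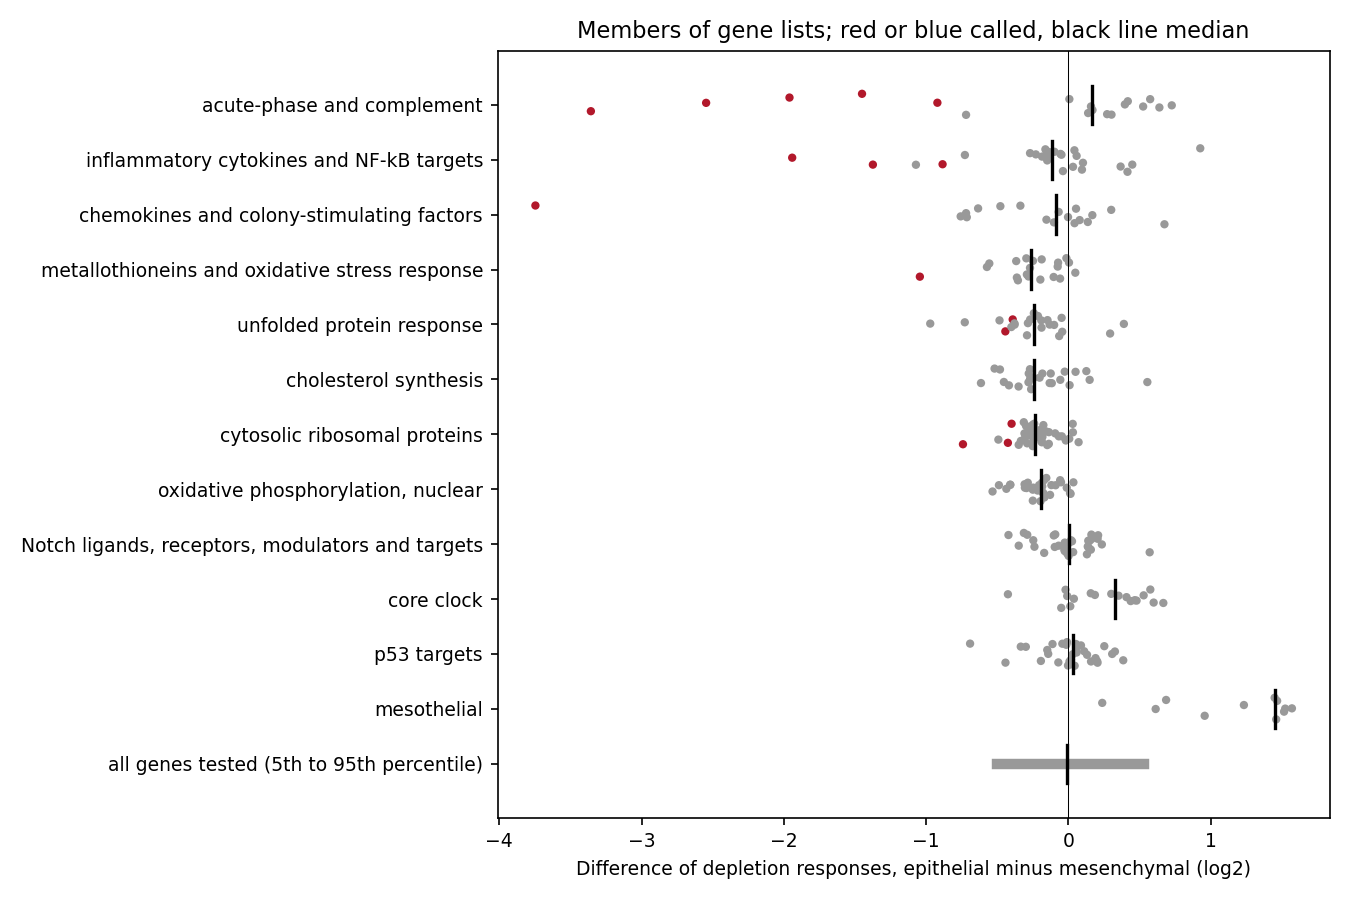
Each point is the difference of depletion responses (epithelial minus mesenchymal, log2) of 1 tested member of a list, red where called, and the black line is the median of the list. The bottom row gives the 5th to 95th percentile of all genes, the unfolded protein, ribosomal and oxidative phosphorylation medians lie left of 0, and the core clock and mesothelial medians lie right of it.

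**Figure D4:**
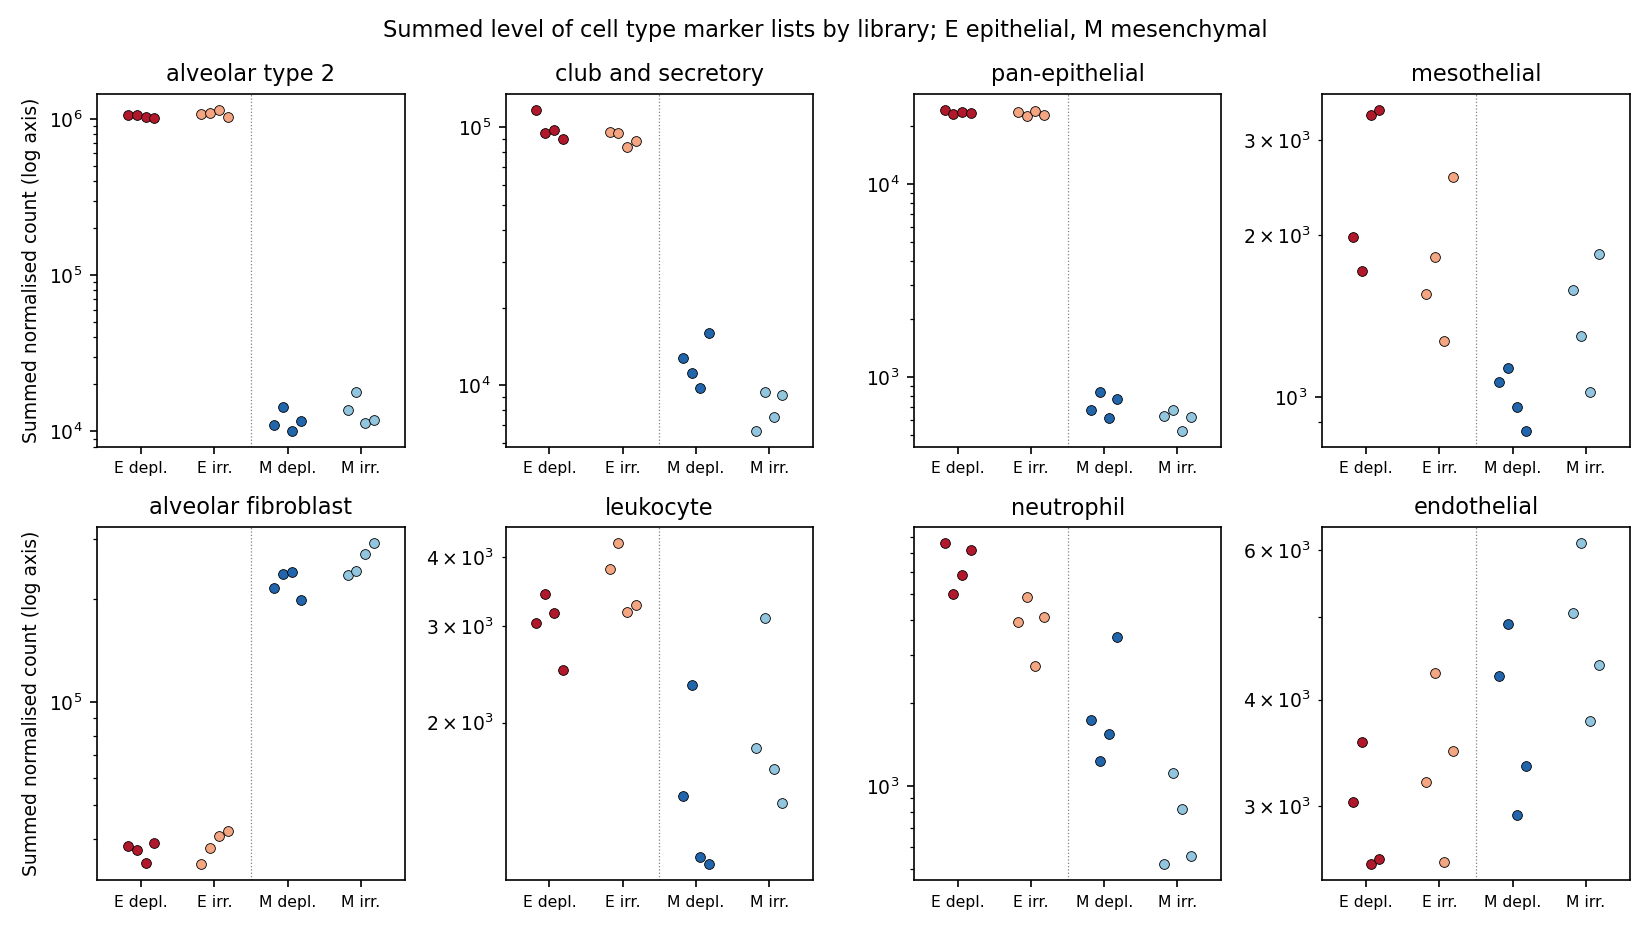
Points are summed normalised counts of marker lists by library on logarithmic axes (E epithelial, M mesenchymal, tables with separate scales). The neutrophil panel includes Lcn2 and the club and secretory panel includes Hp, each a gene with a called difference, and pan-epithelial sums in mesenchyme are 611 to 836 in depleted and 526 to 676 in irradiated mice.

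Leukocyte markers, which the gate should remove, summed to 2498 to 3426 in depleted and 3175 to 4244 in irradiated epithelium, and to 1106 to 2338 in depleted and 1426 to 3106 in irradiated mesenchyme. Endothelial markers summed to 2564 to 3567 in depleted and 2582 to 4295 in irradiated epithelium, and to 2931 to 4909 in depleted and 3776 to 6110 in irradiated mesenchyme. None of the 14 leukocyte and 17 endothelial markers tested had a called difference, against 0.596% of all genes. When the level of leukocyte markers entered the fit, 60 differences were called, 55 of them shared, and those of Il33, Ptx3, Lcn2, Lbp, Ptgs2, Sod2, Il1r1 and Ptger3 were among them. Of the named calls, those of Hp, Acat3, Aldh1l1, Tnfrsf1a, Pdia4, Rpl11, Rpl32, Rplp1, Gpr157, Chn2 and Atp2b4 were not made in that fit.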

How the data were processed

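RNA from sorted mouse lung cells was measured in 24 libraries (rRNA-depleted total RNA). Per the submitters' processing notes, cutadapt 1.5, STAR 2.2.2a, SAMtools 1.8, RSEM 1.3.0 and DESeq2 were used with GRCm38, and their order and settings are not given in the sources used here. The deposited tables hold a signal, normalised counts, in which a size factor for each library has divided its gene counts, with 1 table per compartment. Within a tolerance of 0.001, 100% of positive values in a library were multiples of 1 common step, from which the reads were recovered (in 2 libraries, mesenchymal sham replicate 3 and mesenchymal depleted replicate 4, the step is close to 1 and tells little).

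Values were analysed as log2(value + 1) by limma 3.58.1 under R 4.3.3, with a robust intensity trend, all 24 libraries, 1 mean for each group and no replicate block. Fold changes given are 2 to the power of the log2 response on that scale, errors on log2 values are standard errors of the fit, and p-values were adjusted over 15092 genes. The fit was tested on simulated data. Alternatives included edgeR 4.0.16 and DESeq2 1.42.0 on recovered reads, other pseudocounts and filters, TMM scaling, thinning, replicate blocks, library weights, a leukocyte covariate and leaving out each library. Whether libraries of 1 group were copies was checked by chi-square over genes, and all 36 pairs differed beyond counting error (2.39 to 15.2 per degree of freedom).

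Symbols and positions came from GENCODE M21 (48349 of 48795 identifiers) and upstream sequences from RefSeq, GRCm38.p6. The members and gene lists were chosen with earlier results of these data known. Named genes were the 15 largest called differences in each direction with a mean of at least 50 in a group (predicted genes and pseudogenes left out), called list members or else the 1 or 2 with the smallest p, Ly6g and 7 Notch genes. Others lie outside this rule and were named with their values known, as is said beside most of them. It holds also for Cxcl1, Ccl7, Mt2, Manf and Csf3r, where it is not said. List members without a call are mostly given through the counts of their list, and 1 called gene that the rule names is not reported here. Mitochondrial reads were 1.64% to 1.81% in depleted and 1.63% to 2.43% in irradiated epithelium, and 0.666% to 0.719% in depleted and 0.589% to 0.763% in irradiated mesenchyme.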

Additional observations from a re-analysis of the deposited data

Results flagged for a closer look

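For 43 named genes the test of the difference between the compartments passed the threshold, and these are the log2 differences (epithelial minus mesenchymal). Positive values were those of Ptger3 (1.94), Gpr157 (1.23), Chn2 (1.08), Catsperg1 (0.72), Dock5 (0.70), Nav2 (0.65), Atp2b4 (0.55) and Plxna2 (0.48). Values below -1, of which Cxcl5 and Npy2r passed the minimum in mesenchyme only through the depleted libraries, were those of Cxcl5 (-3.75), Npy2r (-3.53), Lcn2 (-3.36), Ptx3 (-2.55), Acat3 (-2.09), Hp (-1.96), Il33 (-1.94), Alpl (-1.76), Slc39a14 (-1.48), Lbp (-1.45), Ptgs2 (-1.37), Ggt5 (-1.33), Slc16a1 (-1.27), Aldh1l1 (-1.23), Enc1 (-1.14), Sod2 (-1.04) and Il17ra (-1.04). The rest were Cd59a (-0.92), Il1r1 (-0.88), Nek6 (-0.86), Rpl11 (-0.74), Acvr1b (-0.71), Spry2 (-0.71), Egfr (-0.69), Slc11a2 (-0.60), Tgfbr2 (-0.56), Fth1 (-0.55), Il6st (-0.54), Prdx5 (-0.53), Mgst1 (-0.52), Pdia6 (-0.44), Rpl32 (-0.43), Tnfrsf1a (-0.41), Rplp1 (-0.40) and Pdia4 (-0.39).

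Single libraries stood far from the other 3 of their group in 18 of 456 groups of 4 (114 named genes in 4 groups), by Dixon's criterion on the gap to the nearest other library, where chance flags about 1 in 20. In mesenchymal depleted replicate 4 these were Gpr157 (59.5), Atp2b4 (2239), Kcnk3 (269), all low, and Slc16a1 (829) and Erap1 (486), both high. In mesenchymal depleted replicate 3 Ptx3 (481) and Notch1 (1301) were low and Cd59a (264) high, and in replicate 2 Upk3b (126) was high. In mesenchymal irradiated libraries Nav2 (3541) was high and mt-Atp6 (2365) low in replicate 4, Slc16a1 (192) low in replicate 1 and Vav1 (56.9) high in replicate 2. In epithelial depleted libraries Hist1h4a (113) was high in replicate 2, Slc11a2 (597) high and Arhgdib (39.3) low in replicate 1, and Prdx5 (518) high in replicate 4. In epithelial irradiated replicate 4 Hes1 (357) was low.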

How the results depend on the processing

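The 90 called differences became 59 with no filter on low values, 56 with the 16 compared libraries alone, 54 with thinned reads and 177 with DESeq2 on recovered reads (89 shared). The epithelial count of 131 became 76 with a mean of at least 50 in each table and 243 with DESeq2. Leaving out 1 library gave 43 to 152 differences (without mesenchymal depleted replicate 4 and replicate 3), 60 to 181 epithelial calls (lowest without epithelial irradiated replicate 1) and 336 to 1161 mesenchymal calls (lowest without mesenchymal depleted replicate 4). Differences also moved by over 1.5 times without mesenchymal depleted replicate 1 (45), mesenchymal irradiated replicate 4 (51), epithelial irradiated replicates 1 (53) and 3 (54) or epithelial depleted replicate 1 (57). Epithelial calls did so without epithelial irradiated replicate 3 (66) or epithelial depleted replicate 1 (75), and mesenchymal calls without mesenchymal irradiated replicate 4 (552) or mesenchymal depleted replicate 1 (549). The cause was not tested. The share of positive calls was 28.6% without epithelial depleted replicate 3 and 27% without mesenchymal depleted replicate 3. No named call changed sign, and 21 of 43 were called in every one of 29 alternatives that tested the gene. The 21 include Cxcl5 and Npy2r, which passed the minimum in mesenchyme only through the depleted libraries and are not support. They also include Fth1, Slc11a2, Prdx5 and Nek6, which were chosen after their values were seen.

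The labels do not say that a replicate number marks a mouse. Deviations of the 8 same-numbered pairs of a treatment across compartments correlated at -0.037 to 0.255 (median 0.117, 5 of 8 above 0.1), against -0.187 to 0.099 for other pairs. A replicate block for the number and treatment gave 79 differences, 60 shared, without the named calls of Hp, Acat3, Tnfrsf1a, Pdia4, Rpl11, Rpl32, Rplp1, Chn2, Atp2b4 and Plxna2. A replicate block for the number within each compartment gave 58, without those of Hp, Aldh1l1, Il6st, Tnfrsf1a, Mgst1, Pdia4, Rpl11, Rpl32, Rplp1, Gpr157, Chn2, Catsperg1 and Atp2b4.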
